A study of Mus musculus with 10 samples.

Results

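The genes examined were 36 genes of the skeletal muscle fibre, chosen by symbol: the fast and slow proteins of the sarcomere, the proteins that store and release calcium, and enzymes that fuel contraction. All 36 were found among the 19703 protein-coding genes of the expression table. The libraries came from the left ear skin of mice painted with MC903 (calcipotriol), a vitamin D analogue that provokes a dermatitis-like inflammation. MC903 was given on 7 consecutive days and again on day 8. The antagonist group (5 libraries, replicates 4, 6, 7, 8 and 10) was then gavaged with GSK1562590 (5 mg/kg, 100 µl), which blocks the receptor of the peptide urotensin II, and the vehicle group (5 libraries, replicates 3, 9, 10, 11 and 12) with the same volume of vehicle. Ear skin was collected on day 13, and all 10 ears had been painted with MC903, so the levels have no unpainted baseline. The sources used here state neither strain, sex nor age, nor that each library came from its own mouse. The p-values therefore cover the spread between libraries, which may be partly technical.

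Skeletal muscle contracts when calcium, released from the sarcoplasmic reticulum through the ryanodine receptor, binds troponin on the thin filament and lets myosin heads of the thick filament pull on actin. Each fibre builds these filaments from fast or slow versions of the same proteins, and its myosin heavy chain (IIB, IIX, IIA or slow type I, in order of falling speed) sets how quickly it shortens. The external ear of the mouse carries small auricular muscles and a thin sheet of muscle next to skin and cartilage, so a piece of ear holds an amount of muscle that depends on how it was cut. In such bulk tissue, fewer fibres and less RNA per fibre cannot be told apart.

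The stretches of 250 bases before the transcription start of 4 genes are shown first, because these are the genes described below as differing between the groups for which a promoter was at hand. They are RefSeq sequences of mouse build GRCm38.p6, written 5′ to 3′ on the strand of the gene. Capitals mark matches to the E-box CANNTG, to the MCAT element CATTCC, to the MEF2 motif or to the CArG box, searched on both strands; the E-box pattern is its own reverse complement, and no marked stretches overlap. The window of Atp2a1, the calcium pump of fast fibres, is chr7:126463074-126463323 on the minus strand. That of Myh1, the IIX myosin heavy chain, is chr11:67199852-67200101 on the plus strand. Tnni1, the slow troponin I, has 2 listed starts, both inside its span, and the window of the one further upstream is chr1:135799171-135799420 on the plus strand. That of Casq1, the main calcium store protein of fast fibres, is chr1:172219896-172220145 on the minus strand.
Atp2a1: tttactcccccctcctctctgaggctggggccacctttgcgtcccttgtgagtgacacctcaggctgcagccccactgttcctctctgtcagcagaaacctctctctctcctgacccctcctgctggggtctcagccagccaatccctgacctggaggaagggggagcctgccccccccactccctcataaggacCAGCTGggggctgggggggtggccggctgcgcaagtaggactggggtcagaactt
Myh1: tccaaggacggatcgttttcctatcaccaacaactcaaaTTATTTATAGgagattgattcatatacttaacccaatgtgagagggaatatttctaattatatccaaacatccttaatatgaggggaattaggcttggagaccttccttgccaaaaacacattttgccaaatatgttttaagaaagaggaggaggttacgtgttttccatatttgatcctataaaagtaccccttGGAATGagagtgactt
Tnni1: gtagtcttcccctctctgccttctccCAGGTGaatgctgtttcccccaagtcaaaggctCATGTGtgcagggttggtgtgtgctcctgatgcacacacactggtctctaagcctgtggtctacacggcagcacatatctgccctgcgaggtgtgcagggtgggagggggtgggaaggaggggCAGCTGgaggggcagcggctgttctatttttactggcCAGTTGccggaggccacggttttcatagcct
Casq1: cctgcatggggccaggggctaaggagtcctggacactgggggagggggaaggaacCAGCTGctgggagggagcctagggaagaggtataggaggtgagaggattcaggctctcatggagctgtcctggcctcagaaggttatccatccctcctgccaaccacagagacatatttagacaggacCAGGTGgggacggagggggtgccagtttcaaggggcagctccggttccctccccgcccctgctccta

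The Atp2a1 window held 1 E-box, at position -55 counted from the start, and the Casq1 window held 2, at -195 and -67. The Tnni1 window held 4 E-boxes. The Myh1 window held no E-box, a MEF2 match at -211 and an MCAT match at -16. Promoters were found for 29 of the 36 genes; Actn3, Myom2, Myoz1, Neb, Tcap, Tnni2 and Tnnt3 had none in the table. An E-box stood in the window of 26 of the 29 genes (89.7%), against 69.3% of 27025 genes with windows of the same length. The MEF2 motif stood in 6 of 29 (20.7%), against 3.42% of all genes, the MCAT element in 9 of 29 (31.0%), against 14.4%, and the CArG box in 3 of 29 (10.3%), against 1.62%. These are matches of letters and do not show that a factor binds there.

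Muscle fibre transcripts made up a small and uneven share of the ear RNA. The 36 genes together took 0.235, 0.298, 0.338, 0.493 and 0.298% of all TPM (a level scaled by transcript length and library size) in antagonist replicates 4, 6, 7, 8 and 10, and 0.211, 0.444, 0.195, 0.314 and 0.320% in vehicle replicates 3, 9, 10, 11 and 12. The group means were 0.332 ± 0.0972% in antagonist and 0.297 ± 0.1002% in vehicle libraries (SD, n = 5 each). On this TPM scale the difference was smaller than either SD, and the ranges overlapped. All 6 genes fixed as defining markers of skeletal muscle, Acta1, Ckm, Mylpf, Tnnt3, Myh4 and Ttn, were present in every library. Their summed level was 656 to 1570 CPM in antagonist and 684 to 1333 CPM in vehicle libraries (CPM, read counts scaled by library size). Of the 6, 0 passed the test below. All 36 genes summed to 3478 ± 1028 CPM in antagonist and 2595 ± 873 CPM in vehicle libraries (SD, n = 5 each). This difference of 883 CPM was above the vehicle SD and below the antagonist SD. The ranges, 2219 to 5081 and 1729 to 3900 CPM, overlapped.

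The members moved up and down together from ear to ear. Of the 36 genes, 31 were highest among antagonist libraries in replicate 8, and 30 were highest among vehicle libraries in replicate 9. At the low end, 28 were lowest among antagonist libraries in replicate 4 and 27 lowest among vehicle libraries in replicate 10. The mean log2 CPM over the members was 4.72, 5.13, 5.33, 5.82 and 5.10 in antagonist replicates 4, 6, 7, 8 and 10, and 4.67, 5.62, 4.44, 5.19 and 5.07 in vehicle replicates 3, 9, 10, 11 and 12. The highest library thus lay 2.61 times above the lowest, and the spread within a group was 2.15-fold for antagonist and 2.27-fold for vehicle. Group membership accounted for 7.5% of the variance of this mean. The median within-group SD of log2 CPM was 0.51 over the members and 0.17 over all 15174 tested genes.

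**Figure D1:**
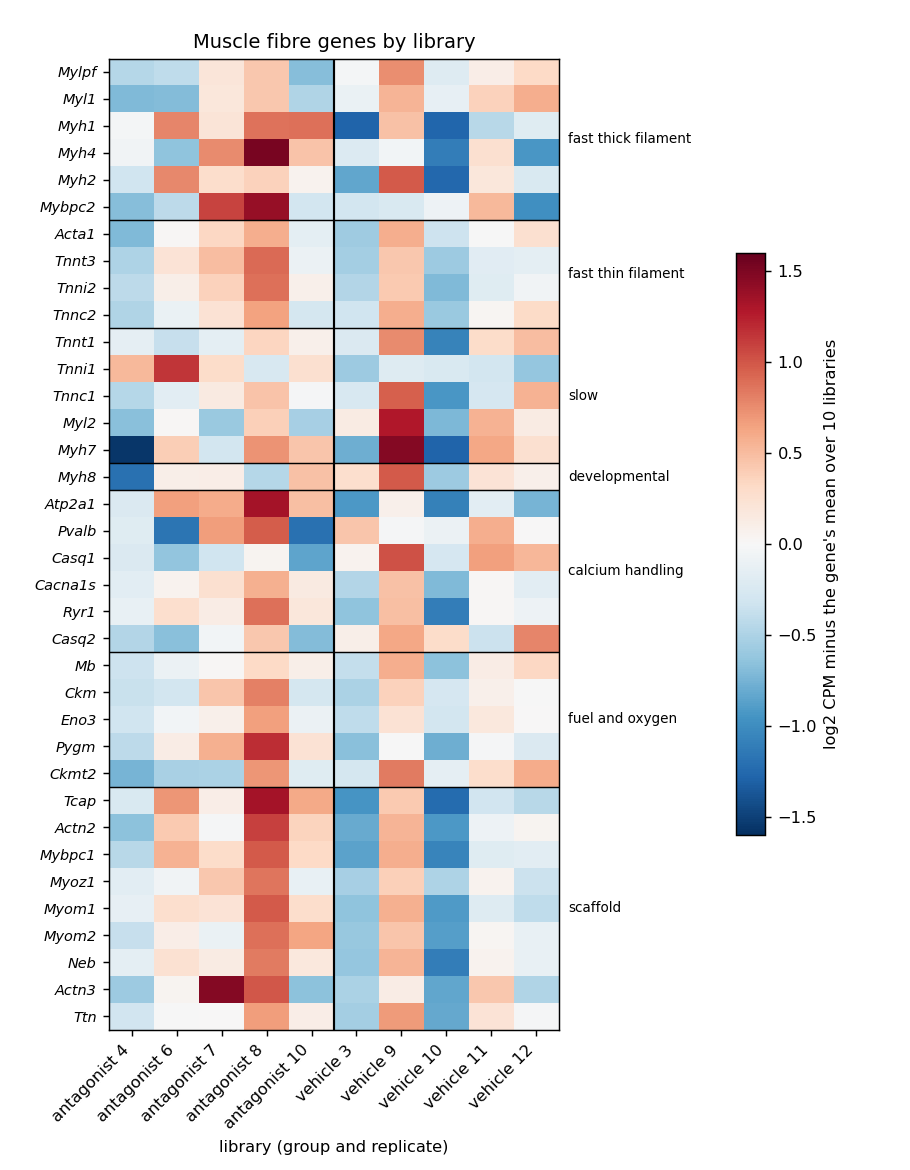
Colour gives the log2 CPM of each muscle fibre gene (rows, grouped by role) in each library (columns, antagonist left of vehicle) minus that gene's mean over the 10 libraries. Most rows are red in antagonist replicate 8 and vehicle replicate 9 and blue in antagonist replicate 4 and vehicle replicate 10, while Tnni1 is lowest among antagonist libraries in replicate 8.

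Against this background few members differed between the groups. Differences are log2 fold changes of antagonist over vehicle from edgeR's quasi-likelihood test on expected counts, and a gene was called when its Benjamini-Hochberg adjusted p over all tested genes was under 0.05. All 36 members passed the filter on low counts. Atp2a1, Myh1, Tcap and Tnni1 were higher and Casq1 lower in antagonist ears, and 31 members were not called, so 5 of 36 (13.9%) were called. Over all 15174 tested genes 34.1% were called, 16.7% higher and 17.4% lower, so the called share of the members was below the background. At an unadjusted p under 0.05 there were 7 of the 36 members, 6 of them higher, against 6931 of all 15174 tested genes. The 7 members were the called genes with Myh4 and Pygm. The median log2 fold change of the members was 0.30, that of all tested genes was -0.00, and 23 members lay above 0 and 13 below it. The members' median was 0.16 without vehicle replicate 10, 0.19 without vehicle replicate 3, 0.19 without antagonist replicate 8 and 0.52 without vehicle replicate 9. The levels of no member separated the groups fully, whereas they did for 20.8% of all tested genes.

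The thick filament of fast fibres pairs myosin heavy chains with light chains. Mylpf, the regulatory light chain of fast myosin and the most abundant of these genes per length, had 287 TPM in antagonist and 371 TPM in vehicle ears on average. It stood at 92.6, 95.1, 145, 171 and 78.9 CPM in antagonist replicates 4, 6, 7, 8 and 10, and at 123, 212, 109, 136 and 157 CPM in vehicle replicates 3, 9, 10, 11 and 12. The groups overlapped, and the log2 difference of -0.34 ± 0.23 (SE) did not pass (adjusted p = 0.273 by edgeR). Myl1, the alkali light chain of fast myosin, lay in the same direction at -0.46 ± 0.24 (adjusted p = 0.160 by edgeR).

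The 3 adult fast heavy chains Myh1, Myh4 and Myh2 had positive log2 fold changes, of which that of Myh1 was called, and the perinatal Myh8 a negative one (-0.38 ± 0.34). Their genes sit in a row on chromosome 11 of GRCm38. Myh2 (IIA) starts at 67171027, Myh1 (IIX) at 67200102, Myh4 (IIB) at 67237812 and Myh8, the perinatal form, at 67277124. The deposited end of Myh1 was 67237573, whereas RefSeq ends the gene at 67224577. Myh1 rose, with 358, 630, 420, 669 and 675 CPM in antagonist replicates 4, 6, 7, 8 and 10, against 151, 504, 152, 269 and 320 CPM in vehicle replicates 3, 9, 10, 11 and 12. Vehicle replicate 9 lay among the antagonist libraries, and the other 4 vehicle libraries lay below all of them. The log2 fold change was 0.98 ± 0.33 (SE; adjusted p = 0.0385 by edgeR), and the call was lost without any single one of antagonist replicates 6, 8 and 10 or vehicle replicates 3, 10, 11 and 12 (adjusted p from 0.0553 to 0.0814). Expected counts of Myh1 ran from 3004 to 13699 per library.

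Myh4 had 69.6, 46.4, 122, 208 and 99.2 CPM in antagonist replicates 4, 6, 7, 8 and 10, and 62.0, 70.1, 33.5, 86.3 and 38.0 CPM in vehicle replicates 3, 9, 10, 11 and 12. Its log2 fold change of 0.91 ± 0.38 was near that of Myh1 and was not called (adjusted p = 0.0840 by edgeR). Antagonist replicates 4 and 6 lay within the vehicle range. Myh2 ranged from 55.5 to 117 CPM in antagonist and from 28.9 to 137 CPM in vehicle ears (0.29 ± 0.36 on the log2 scale, adjusted p = 0.561 by edgeR). Mybpc2, the fast myosin-binding protein C, averaged 10.2 ± 6.79 CPM in antagonist and 6.69 ± 2.48 CPM in vehicle ears (SD, n = 5 each) and was not called. Myh8, the only developmental member, was scarce, at 0.328 to 1.03 CPM in antagonist and 0.50 to 1.47 CPM in vehicle ears, from 7.12 to 30.5 expected counts per library.

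None of the 4 thin filament members was called. Acta1, skeletal muscle actin and the most abundant member per length, had 241, 399.7, 494, 588 and 353 CPM in antagonist replicates 4, 6, 7, 8 and 10, and 264, 587, 311, 393 and 471 CPM in vehicle replicates 3, 9, 10, 11 and 12. Both groups covered nearly the same range, and the difference of 0.03 ± 0.25 on the log2 scale was not called (adjusted p = 0.931 by edgeR). Tnnt3, Tnni2 and Tnnc2, the fast troponins T, I and C, had log2 fold changes of 0.44 ± 0.26, 0.41 ± 0.25 and -0.00 ± 0.25 with overlapping groups.

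**Figure D2:**
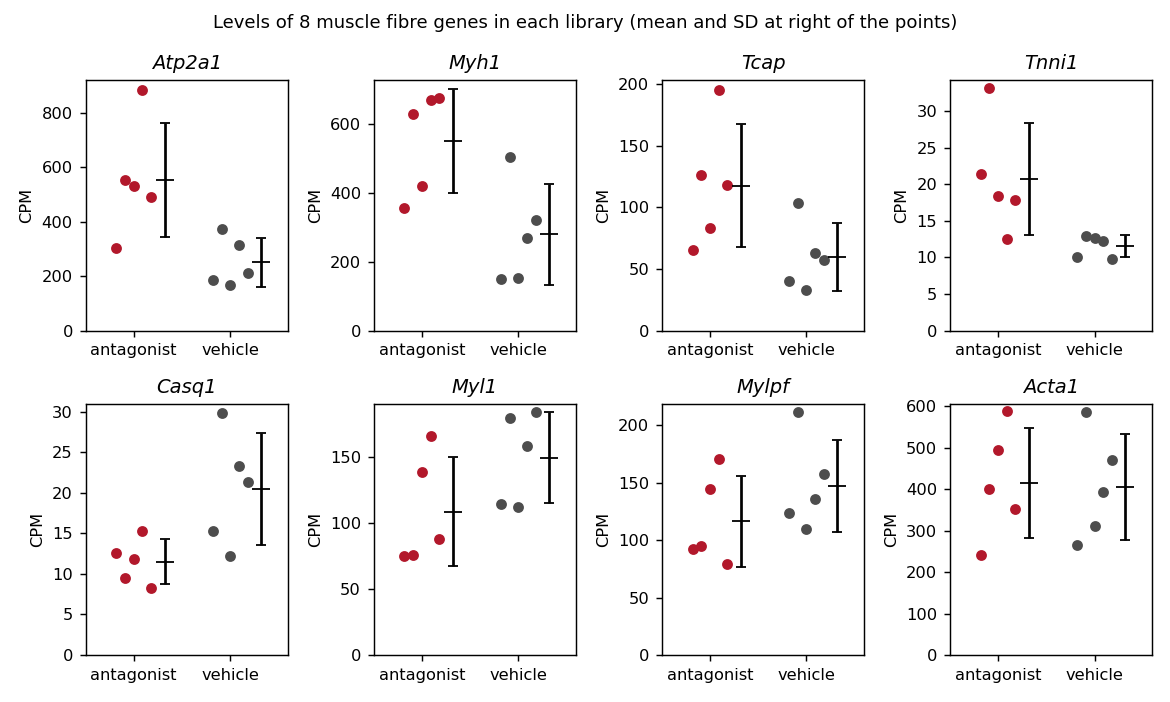
Points are the CPM of 8 muscle fibre genes in each of the 5 antagonist (left, red) and 5 vehicle (right, grey) libraries, with the group mean and SD beside them. Atp2a1, Myh1, Tcap and Tnni1 lie higher and Casq1 lower in antagonist ears, with some overlap in every panel.

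Slow fibre members were low, and 1 of the 5 was called. Per length, the 5 slow genes, of thick and thin filament, summed to 88.0 TPM in antagonist and 87.7 TPM in vehicle ears. The 6 fast thick filament genes summed to 708 and 788 TPM, and the 4 thin filament members to 1307 and 1159 TPM. In CPM the 6 fast thick filament genes went the other way, with mean sums of 978 in antagonist and 709 in vehicle ears. Tnnt1, the slow troponin T and the most abundant slow member, had 20.8, 17.7, 20.6, 29.0 and 24.3 CPM in antagonist replicates 4, 6, 7, 8 and 10, and 19.4, 38.9, 10.96, 28.1 and 32.2 CPM in vehicle replicates 3, 9, 10, 11 and 12, without a call. Tnnc1, the slow and cardiac troponin C, Myl2, the slow regulatory light chain, and Myh7, the slow myosin heavy chain, had log2 fold changes of -0.14 ± 0.32, -0.64 ± 0.34 and -0.25 ± 0.51, none of them called. Myh7 reached only 1.03 to 5.00 CPM in antagonist and 1.25 to 8.42 CPM in vehicle ears.

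Tnni1, on chromosome 1 from 135783033 to 135810989, was the exception among the slow genes. It rose, with 21.4, 33.1, 18.4, 12.5 and 17.9 CPM in antagonist replicates 4, 6, 7, 8 and 10, against 10.0, 13.0, 12.6, 12.2 and 9.76 CPM in vehicle replicates 3, 9, 10, 11 and 12. Here antagonist replicate 8, the library with the highest members' mean, was the lowest of its group and the only one inside the vehicle range. The log2 fold change was 0.84 ± 0.22 (SE; adjusted p = 0.0134 by edgeR), and the call held in every analysis that left out 1 library.

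Calcium handling members split in both directions. Atp2a1, which pumps calcium back into the sarcoplasmic reticulum of fast fibres, lies on chromosome 7 from 126445858 to 126463103. Its levels were 301, 554, 532, 884 and 492 CPM in antagonist replicates 4, 6, 7, 8 and 10, against 187, 374, 167, 315 and 210.2 CPM in vehicle replicates 3, 9, 10, 11 and 12. Only antagonist replicate 4 lay inside the vehicle range. Atp2a1 was 2.20 times higher (1.14 ± 0.29 SE on the log2 scale, adjusted p by edgeR 0.0121), the largest difference among the members, and stayed called when any single library was left out.

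Casq1, which holds calcium inside the same compartment, moved the other way. It fell to 12.6, 9.54, 11.9, 15.3 and 8.23 CPM in antagonist replicates 4, 6, 7, 8 and 10, against 15.3, 29.9, 12.3, 23.3 and 21.4 CPM in vehicle replicates 3, 9, 10, 11 and 12. Vehicle replicate 10, the library with the lowest members' mean, was the only vehicle library within the antagonist range. Vehicle replicate 3, at 15.32 CPM, lay barely above antagonist replicate 8, at 15.30 CPM. The log2 fold change was -0.83 ± 0.24 (SE; adjusted p = 0.0210 by edgeR), and -0.76 with an adjusted p of 0.0551 without antagonist replicate 6. Casq2, the cardiac and slow form, lay in the same direction at -0.56 ± 0.27 without a call. Pvalb, a calcium buffer of the fastest fibres, spread from 4.88 to 21.7 CPM in antagonist and from 10.5 to 16.6 CPM in vehicle ears. Ryr1, the release channel, and Cacna1s, the voltage sensor that opens it, had log2 fold changes of 0.47 ± 0.27 and 0.30 ± 0.21, neither called.

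None of the 5 fuel and oxygen genes was called. Mb, the oxygen-binding myoglobin and the most abundant of them, had 135, 158, 171, 211 and 180.0 CPM in antagonist replicates 4, 6, 7, 8 and 10, and 129, 252, 107, 183 and 212 CPM in vehicle replicates 3, 9, 10, 11 and 12, a log2 fold change of -0.05 ± 0.21. Ckm, the muscle creatine kinase, and Eno3, the muscle enolase, stood at 0.18 ± 0.24 and 0.13 ± 0.18. Pygm, which breaks down glycogen, was just short of the threshold, at 52.4 ± 22.3 CPM in antagonist and 31.4 ± 7.60 CPM in vehicle ears (SD, n = 5 each), with 0.74 ± 0.27 (SE) on the log2 scale and an adjusted p of 0.0526 by edgeR. Ckmt2, the mitochondrial creatine kinase of muscle, lay in the opposite direction at -0.47 ± 0.29 (adjusted p = 0.230 by edgeR).

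All 9 scaffold genes had positive log2 fold changes, from 0.13 to 0.98. The members moved together between libraries, so these are not 9 separate observations. Only 1 of the 9 was called. This was Tcap, or telethonin, which caps titin at the Z disc, on chromosome 11 from 98383811 to 98384953. It had 65.6, 126, 83.3, 195 and 118 CPM in antagonist replicates 4, 6, 7, 8 and 10, against 40.3, 104, 33.2, 62.8 and 57.2 CPM in vehicle replicates 3, 9, 10, 11 and 12. The log2 fold change was 0.98 ± 0.34 (SE; adjusted p = 0.0422 by edgeR), with vehicle replicate 9 inside the antagonist range. The call was lost without any single one of antagonist replicates 6, 8 and 10 or vehicle replicates 3, 10, 11 and 12 (adjusted p from 0.0683 to 0.104). Titin itself (Ttn), the molecular spring of the sarcomere, and nebulin (Neb), which runs along the thin filament, stood at 0.13 ± 0.26 and 0.42 ± 0.28. Actn2 and Actn3, the alpha-actinins of the Z disc, and Mybpc1, the slow myosin-binding protein C, had log2 fold changes of 0.49 ± 0.33, 0.68 ± 0.41 and 0.64 ± 0.31. Myom1 and Myom2, which link thick filaments in the M band, stood at 0.60 ± 0.27 and 0.45 ± 0.28, and Myoz1, a calcineurin-binding protein of fast Z discs, at 0.39 ± 0.23.

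**Figure D3:**
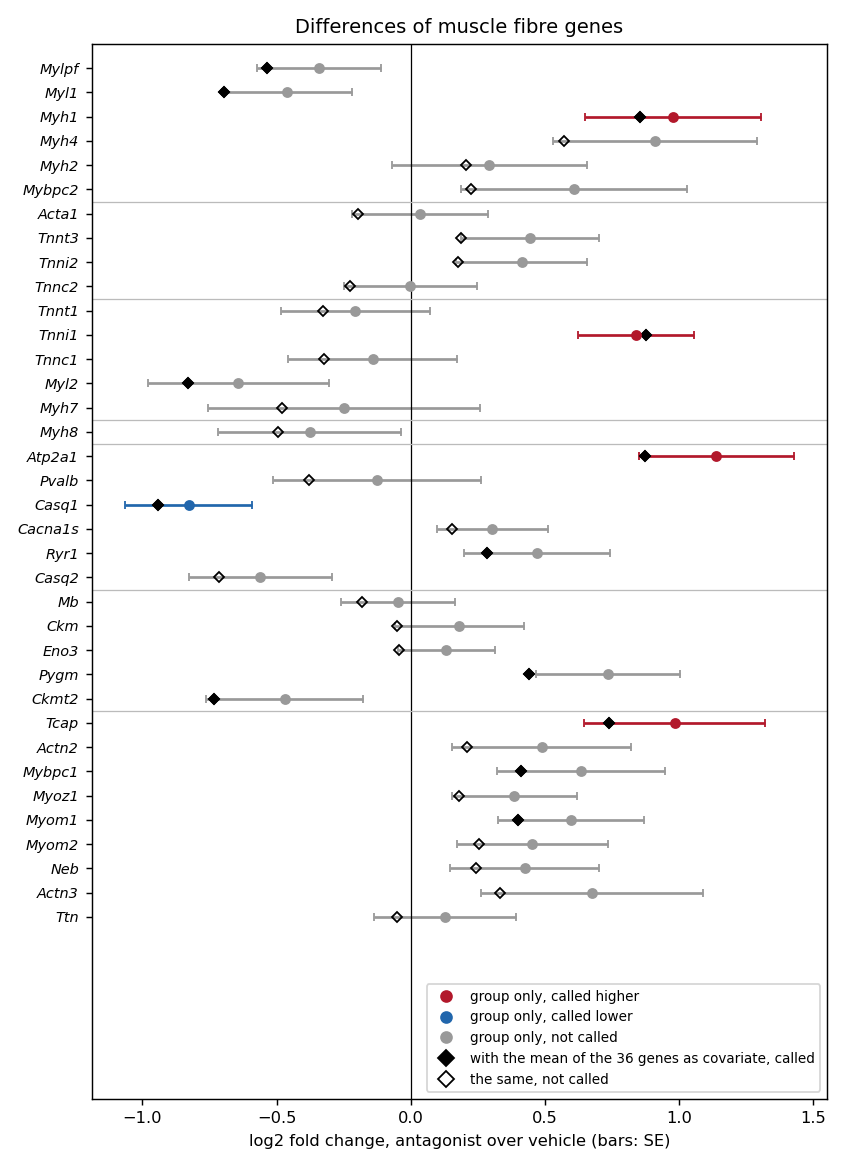
Circles give the log2 fold change of antagonist over vehicle with its SE for each of the 36 genes, in the order of the heat map, and diamonds the same value after adjustment for the members' mean log2 CPM in each library. Circles run from -0.83 for Casq1 to 1.14 for Atp2a1, the diamond of Casq1 lies at -0.94, and most diamonds lie left of their circles.

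The mixture of myosin heavy chains was read from their TPM, as shares of the sum of Myh4, Myh1, Myh2 and Myh7. IIX myosin dominated every ear. Myh1 took 74.0, 79.1, 66.9, 69.0 and 79.4% in antagonist replicates 4, 6, 7, 8 and 10, and 59.6, 70.2, 70.6, 61.5 and 76.3% in vehicle replicates 3, 9, 10, 11 and 12. The means were 73.7 ± 5.71% in antagonist and 67.6 ± 6.94% in vehicle ears (SD, n = 5 each). Myh4 took 14.5 ± 6.23% in antagonist and 15.7 ± 6.58% in vehicle ears, a difference well inside the spread. Myh2 took 11.4 ± 2.64% in antagonist and 15.8 ± 2.43% in vehicle ears, with overlapping ranges of 8.42 to 14.6% and 13.3 to 18.9%. The slow Myh7 took 0.210 to 0.515% in antagonist ears, all below the 0.579 to 1.17% of vehicle ears. Its expected counts were 21.9 to 177 per library, and the groups of this share were not tested. The level of Myh7 itself averaged 0.91 TPM in antagonist and 1.12 TPM in vehicle ears, while the sum over the 4 genes averaged 206 ± 52.1 TPM in antagonist and 116 ± 60.5 TPM in vehicle ears (SD, n = 5 each). The heavy chain genes resemble one another and had fractional counts, so the split among them is uncertain.

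**Figure D4:**
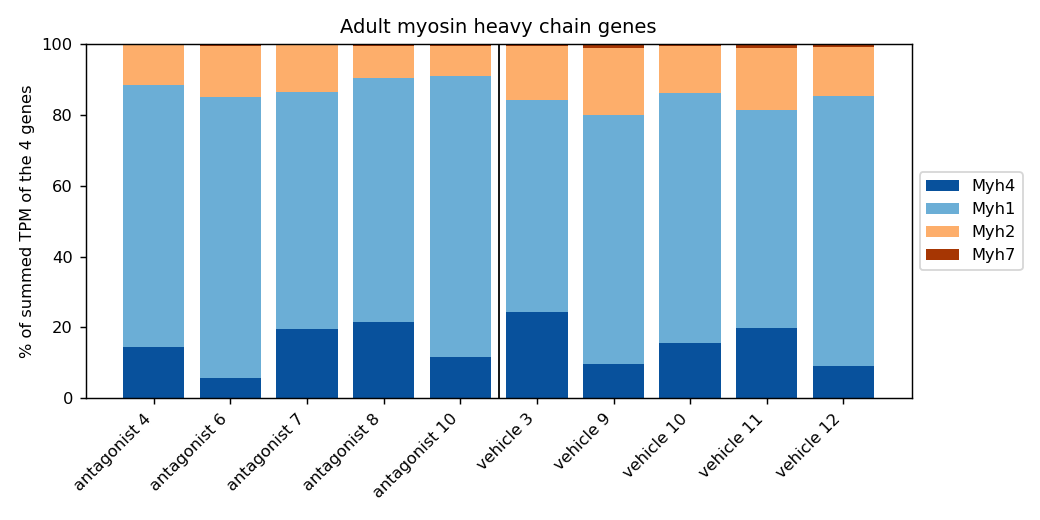
Each bar is 1 library, antagonist left of vehicle, and splits the summed TPM of the 4 adult myosin heavy chain genes into the percentage of each. Myh1 holds 59.6 to 79.4% in all 10 bars, and Myh7 is a thin band at the top that does not exceed 1.17%.

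Fast genes were higher relative to slow genes in antagonist ears, by an amount close to the spread. The mean log2 CPM of 14 fast members minus that of 6 slow members was 3.24, 2.98, 3.73, 3.65 and 3.03 in antagonist replicates 4, 6, 7, 8 and 10, and 3.02, 2.75, 3.17, 3.22 and 2.72 in vehicle replicates 3, 9, 10, 11 and 12. The means were 3.33 ± 0.35 in antagonist and 2.98 ± 0.23 in vehicle libraries (SD, n = 5 each), a difference of 0.35, and the ranges overlapped. Of the 14 fast genes 9 had a positive log2 fold change (median 0.40), and of the 6 slow genes 1 did (median -0.23). The slow list held Myh7, Myl2, Tnnt1, Tnni1, Tnnc1 and Casq2. Tnni1 was the positive one among them, and Casq1, Myl1, Mylpf, Pvalb and Tnnc2 were the negative ones of the fast list. Mybpc1, counted with the scaffold genes and in neither list, is also known from slow fibres and stood at 0.64.

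Because the members' mean differed between ears, each member was also set against the mean of all 36 in its own library, a scale on which rises and falls balance by construction. On this scale 7 of the 36 members did not overlap between the groups, against 2.44% of all tested genes, for which subtracting the muscle mean adds its variation. Atp2a1 lay 3.52 to 3.99 log2 units above the members' mean in antagonist ears, and 2.64 to 3.11 above it in vehicle ears. Myh1 lay 3.38 to 4.30 above it in antagonist and 2.57 to 3.36 above it in vehicle ears. Pygm completed the higher genes, with 0.15 to 0.64 in antagonist and -0.34 to 0.07 in vehicle ears. Casq1 stood at -2.04 to -1.05 in antagonist and -0.81 to -0.64 in vehicle ears. Mylpf, Myl1 and Ckmt2 were the other lower genes, with mean differences of -0.59, -0.73 and -0.73.

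**Figure D5:**
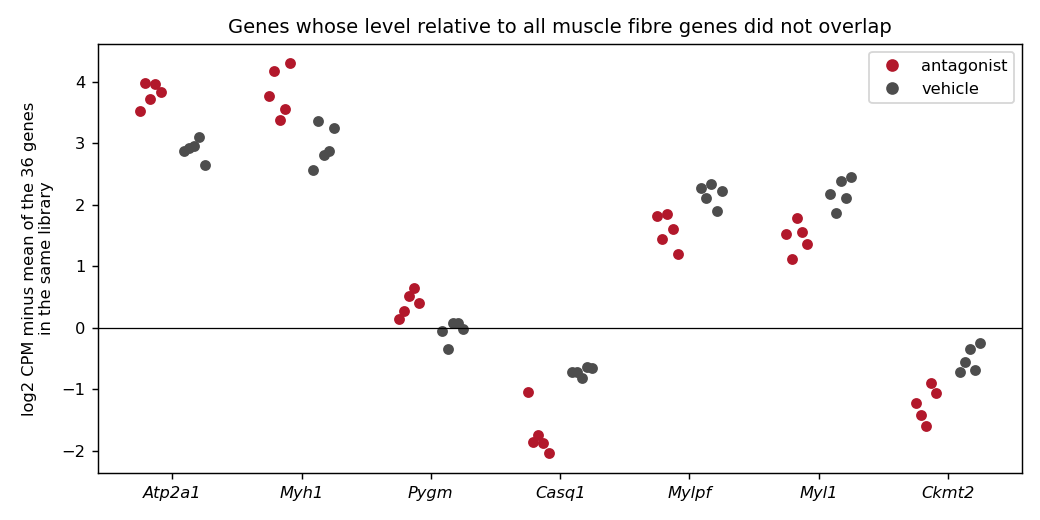
Points are the log2 CPM of a gene minus the mean log2 CPM of the 36 muscle fibre genes in the same library, for the 7 genes whose antagonist (left, red) and vehicle (right, grey) libraries did not overlap. Atp2a1, Myh1 and Pygm lie higher and Casq1, Mylpf, Myl1 and Ckmt2 lower in antagonist ears.

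The same adjustment was made inside the edgeR model, with the members' mean log2 CPM as a covariate. This step was chosen after the data were seen. It called 13 of the 36 members, 8 higher and 5 lower, where 29.7% of all tested genes were called. The covariate is built from the tested members and takes out variation that they share, which it does not do alike for other genes. The calls and adjusted p are therefore a description and not further support for a difference. The higher genes were Atp2a1 (log2 fold change 0.87, adjusted p = 0.00147 by edgeR), Myh1 (0.86), Tnni1 (0.88), Tcap (0.74), Pygm (0.44), Mybpc1 (0.41), Myom1 (0.40) and Ryr1 (0.29). The lower genes were Casq1 (-0.94, adjusted p = 0.00381 by edgeR), Myl2 (-0.83), Ckmt2 (-0.73), Myl1 (-0.70) and Mylpf (-0.54). Across the 36 members the Spearman correlation of the unadjusted log2 fold change with the length behind the TPM values (expected count over TPM) was 0.34, and across all 15174 tested genes it was 0.06.

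Muscle genes outside the 36 were called in smaller shares than the 34.1% of all tested genes in 5 of 6 lists. Of 31 further genes of the sarcomere and Z disc, 1 rose, 6 fell and 24 were not called. The riser was Mylk2, the myosin light chain kinase of skeletal muscle (log2 fold change 2.13 ± 0.40). Mylk2 averaged 40.6 CPM in antagonist and 9.26 CPM in vehicle ears. Its ranges, 14.5 to 71.4 CPM in antagonist and 6.28 to 15.2 CPM in vehicle ears, overlapped. Tpm3, a tropomyosin of slow fibres and of many other cells, and Lmod3, a leiomodin of the thin filament, had log2 fold changes of -0.30 ± 0.06 and -1.30 ± 0.30. Of 20 genes of excitation-contraction coupling 1 rose and 5 fell, led by Bin1, which shapes the transverse tubules (-0.53 ± 0.12), Sypl2, a triad membrane protein (-1.03 ± 0.26), and Jph2, which ties the tubules to the reticulum (-0.52 ± 0.13). Of 17 fuel genes 1 rose, Fabp3, the fatty acid carrier of muscle and heart (1.54 ± 0.41), and 1 fell, the adenylate kinase Ak1 (-0.64 ± 0.12). The third in that list by p, the glucose carrier Slc2a4, stood at 0.40 ± 0.15 without a call. Among these lists the medians were 0.06, 0.08 and 0.08, beside -0.00 for all tested genes.

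Of 15 tested genes of the neuromuscular junction and fibre membrane, Chrnb1, a subunit of the muscle acetylcholine receptor (0.57 ± 0.17), and Sgca, alpha-sarcoglycan (0.89 ± 0.28), rose, and Dysf, the membrane repair protein dysferlin (-0.47 ± 0.13), fell. Of 11 tested satellite cell and myogenic genes 2 fell, the transcription factor Mef2c (-0.75 ± 0.14) and the lectin Chodl (-1.76 ± 0.34). Pax7, Myf5, Mymk and Mymx did not pass the filter on low counts.

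Genes known from muscle protein breakdown and energy stress rose in 12 of 19 cases and fell in 0, with a median log2 fold change of 0.52, where 16.7% of all tested genes were higher. Many of these genes are expressed well beyond muscle. This list, like the others, was chosen with earlier results of these data known. Its share was therefore not tested against that of all genes. Trim63, the ubiquitin ligase MuRF, had 3.42, 26.7, 12.4, 91.7 and 40.4 CPM in antagonist replicates 4, 6, 7, 8 and 10, against 3.22, 3.28, 1.05, 2.81 and 2.68 CPM in vehicle replicates 3, 9, 10, 11 and 12. Fbxo32, the ligase atrogin, had 23.4, 66.9, 45.1, 117 and 70.7 CPM in antagonist replicates and 15.6, 24.3, 17.01, 23.3 and 20.1 CPM in vehicle replicates, in the same order of libraries. The groups did not overlap for Trim63, for which antagonist replicate 4 was close to the vehicle ears, and antagonist replicate 4 was the only antagonist ear within the vehicle range of Fbxo32. Their log2 fold changes were 3.74 ± 0.74 and 1.69 ± 0.34 (SE). Ddit4, an inhibitor of growth signalling, Klf15, a glucocorticoid-induced transcription factor, and Bnip3, a mitophagy receptor, had the smallest p, with log2 fold changes of 1.2 ± 0.20, 1.64 ± 0.29 and 1.47 ± 0.26.

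Markers of neighbouring tissues moved with the groups to differing degrees. Of 14 tested cartilage markers 0 rose and 9 fell, where 17.4% of all tested genes were lower. Their summed level was 2310 to 4219 CPM in antagonist and 2791 to 3422 CPM in vehicle ears. Most of that sum was Cytl1, a cytokine-like protein of cartilage, at 2579 CPM in antagonist and 2143 CPM in vehicle ears on average, without a call. Group membership accounted for 68.6% of the variance of their mean log2 CPM. It was 3.10 to 4.94 in antagonist and 5.13 to 5.86 in vehicle ears, without overlap. A fit with both this mean and the group therefore cannot tell cartilage from group. With that mean as a covariate edgeR called 0 of the 36 members and 0 of all 15174 tested genes, with 1 member and 2009 genes at an unadjusted p under 0.05; no other tool was run with this covariate. The log2 fold changes were then 0.71 for Atp2a1, 0.66 for Tnni1, 0.31 for Myh1, 0.28 for Tcap and -0.38 for Casq1. Of 10 smooth muscle markers 5 fell and 0 rose, and their sum did not overlap, at 199.8 to 257 CPM in antagonist and 285 to 351 CPM in vehicle ears. Among 6 tendon markers 3 fell, and their sum was 286 to 459 CPM in antagonist and 386 to 543 CPM in vehicle ears. Of 5 tested heart markers Tnnt2 and Myl7 rose and Actc1, an actin close in sequence to Acta1, fell, while the defining heart genes Myh6, Nppa and Mybpc3 were too low to test. The heart sum was 29.0 to 45.7 CPM in antagonist and 16.9 to 21.8 CPM in vehicle ears. Of 9 white adipocyte markers 2 rose and 0 fell, where 16.7% of all tested genes were higher. Their log2 fold changes went both ways, from -1.93 to 1.24 with a median of -0.03. The white adipocyte sum, weighted to the abundant genes, was 747 to 1348 CPM in antagonist and 613 to 955 CPM in vehicle ears. Brown adipocyte markers rose in 0 of 4, with Ucp1 too low to test. Schwann cell markers rose in 1 and fell in 1 of 7, epidermal markers were called in 0 of 5, and red blood cell markers fell in 4 of 5, with sums of 44.2 to 441 CPM in antagonist and 343 to 851 CPM in vehicle ears. The part of these tissues in the differences of the muscle genes was not tested, and the cartilage covariate could not test it.

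The authors' deposited table gave a q-value under 0.05 to 4 members that were higher and 1 that was lower in antagonist ears, where 29.2% of its 19075 genes with a q-value passed. In the authors' deposited table the higher genes were Atp2a1 (log2 fold change 1.14, q = 0.000338), Tnni1 (0.84, q = 0.00118), Pygm (0.74, q = 0.0212) and Myh1 (0.98, q = 0.0366), and the lower gene was Casq1 (-0.82, q = 0.00404). Pygm was thus called there and Tcap was not, the reverse of the result with edgeR. A DESeq2 fit of the same counts called 6 members, the 5 called by edgeR and Pygm (adjusted p = 0.0175 by DESeq2). It called 37.6% of all genes it tested.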

How the data were processed

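Poly(A) RNA of 10 left ears was sequenced as DNA nanoballs, per the labels' protocols, with no step that marks the strand mentioned. Per the submitters' processing notes the aligner was HISAT; its version, the counting tool and the annotation were not given in sources used here. Per the file headers, the authors deposited estimated counts (expected counts), TPM and FPKM per library with group means, and their own DESeq2 log2 fold changes, p-values and q-values, whose direction follows the deposited means. FPKM values were not analysed. Of 19645 genes matched by identifier to RefSeq GRCm38.p6, 19540 overlapped its position, so positions are on GRCm38. Overlap does not fix the counting base, which was taken as 1-based because most member starts equalled those of RefSeq. Some bounds differed, such as the start of Myl2 by 8201 bases. 1 line of the table held no values and was not analysed here.

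Expected counts were rounded, filtered with filterByExpr (about 10 counts in enough libraries, 15 in total; 15174 genes left), scaled with TMM (factors 0.972 to 1.04) and tested with edgeR 4.0.16 (R 4.3.3), group as the single term. A standard error is the log2 fold change over the square root of F; log2 CPM carry a prior count of 2. Library totals were 20183024 to 20606007 counts. The code was tested on simulated data. Every pair of libraries differed by at least 21.4 times sampling noise. Of the 36 members, 20 had whole counts in all libraries (within 0.001); fractional ones, such as Atp2a1, Acta1 and the myosins, may share reads with related genes.

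Members and lists were chosen with earlier results of these data known. All members are named, with levels per library for the most abundant member of each role, Myh4 and the called genes. Levels of Myh2, Myh7 and Myh8 are given as ranges. Of the other muscle lists the genes with the 3 smallest p are named, with Trim63 and Fbxo32. 1 gene that this rule names is not reported here. Myl1, Pygm, Ckmt2 and the relative scale were singled out after their values were seen. Alternatives were other scalings and filters, DESeq2 1.42.0, limma 3.58.1 (voom with sample weights, and limma-trend on log2 TPM after adding 1 or 0.1), robust estimates, each library left out, and cartilage or muscle covariates.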

Additional observations from a re-analysis of the deposited data

Results flagged for a closer look

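Within each group of 5 libraries, the gap between the most extreme library and its neighbour was compared with the range for every member. In 2 of 72 groups this gap exceeded 0.710 of the range, where chance alone gives about 1 in 20. Both were antagonist replicate 8. Ckmt2 stood there at 30.4 CPM, with the other antagonist libraries at 11.2 to 16.3 CPM, and Myom1 at 84.1 CPM, with the others at 38.8 to 51.8 CPM. Without this library edgeR called Ckmt2 lower and left Myom1 uncalled.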

How the results depend on the processing

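No paired analysis was possible because the labels link no antagonist library to a vehicle library. Replicate number 10 occurs in both groups, but it is not stated to mark a pair. The main fit called 5 members, 4 higher and 1 lower. The count was 3 (2 higher) with robust edgeR estimates, where 34% of all tested genes were called. It was 0 (0 higher, 0 lower, and 0 of all genes) with the cartilage covariate, which cannot be told apart from group. With the members' mean as a covariate, built from the tested members, it was 13 (8 higher, 5 lower), beside 29.7% of all genes. With DESeq2 it was 6 (5 higher, adding Pygm), beside 37.6% of all genes. Leaving out 1 library gave 3 to 7 members, 2 to 6 higher and 0 to 4 lower. Of all tested genes, 25.2 to 37% were called in these fits. Tcap also lost its call with limma-trend on TPM and a pseudocount of 1 (adjusted p = 0.0502), and Tcap and Myh1 with robust estimates (0.0598 and 0.0535). The median log2 fold change of the members (0.30) ranged from 0.16 to 0.52 with 1 library left out and was 0.10 with the cartilage covariate. The fast minus slow difference (0.35) ranged from 0.25 to 0.44, and the myosin shares, recomputed from CPM, moved by less than 1 SD between libraries. The called genes kept their sign in every alternative.

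Members not called changed sign as follows, and the cause was not tested. With the cartilage covariate the log2 fold change was -0.12 for Acta1, -0.15 for Myh2, 0.0679 for Tnnc2, -0.15 for Actn2, 0.85 for Pvalb, -0.0835 for Ttn and -0.16 for Myom2. With the members' mean as a covariate it was -0.20 for Acta1, -0.0524 for Ckm, -0.0425 for Eno3 and -0.0526 for Ttn. Tnnc2, near 0, gave 0.00054 with DESeq2 size factors, 0.0051 with scaling without muscle genes, 0.0023 with no filter, 0.0025 with at least 1 CPM in 5 libraries, 0.00081 with DESeq2 and 0.022 with limma-voom. Over the analyses that left out 1 library the ranges were -0.12 to 0.21 for Acta1, -0.0433 to 0.30 for Ckm, -0.47 to 0.23 for Myh7, -0.19 to 0.16 for Tnnc2, -0.32 to 0.15 for Tnnc1, -0.18 to 0.11 for Mb, -0.47 to 0.0765 for Pvalb, -0.0505 to 0.22 for Eno3 and -0.0458 to 0.36 for Ttn. Low counts limit Myh8 and Myh7 in particular.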
